A study of Mus musculus with 6 samples.

Results

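The genes described are 10 of the 13809 genes counted in E18.5 mouse hearts: the actin isoforms *Acta1*, *Actc1*, *Actb* and *Actg1*, the leiomodins *Lmod2* and *Lmod3*, the tropomodulins *Tmod1*, *Tmod2* and *Tmod3*, and *Actn2*, which encodes the cardiac alpha-actinin of the Z-disc. They were picked by symbol, and no measured value enters that rule. The list was nevertheless drawn up with KO-against-WT results of these libraries already known, so counts over the 10 genes are a description. RNA depleted of ribosomal RNA was sequenced from 3 WT and 3 *Pkm1*-KO hearts. The KO embryos are homozygous for a small CRISPR/Cas9 deletion in the exon of *Pkm* that is particular to the PKM1 isoform of pyruvate kinase, made by injecting zygotes of BDF1 mice, the cross of C57BL/6J and DBA/2. The WT embryos lack the deletion, and both groups were taken at embryonic day 18.5. The labels name the tissue heart and the study's results name ventricular tissue, and the deletion is present in every cell type.

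Cardiac thin filaments are polymers of actin, anchored by their barbed ends in the Z-disc through alpha-actinin and ending at the pointed end toward the middle of the sarcomere. At the pointed end, tropomodulins cap the filament and limit its growth, whereas leiomodins, relatives of tropomodulins, nucleate and lengthen filaments. The fetal heart makes both sarcomeric alpha-actins, *Actc1* (cardiac) and *Acta1* (skeletal), while *Actb* and *Actg1* encode the cytoplasmic actins that all cells use.

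Levels are given as CPM, counts scaled to a common library size by edgeR's TMM method, and a gene is called lower or higher in KO at an adjusted p under 0.05 in edgeR's quasi-likelihood test. Library totals ran from 15567624 to 19875546 counts, and 3 counts, taken as the detection limit for counting error, correspond to 0.151 to 0.193 CPM. The columns carry no replicate numbers, so the libraries are named by genotype with a letter, in column order. *Pkm*, the targeted gene, averaged 1318 ± 41.1 CPM in the WT libraries (SD, n = 3) and 542 ± 10.1 in KO. All 8 cardiomyocyte markers examined were detected, with a summed level of 50800 to 53770 CPM in WT and 45890 to 46650 in KO (6 lower, 1 higher, 1 not called). *Xist* was at 5.26 CPM in WT and 2285 in KO, and 4 Y-linked genes had 0 counts in every KO library. Sex and genotype therefore cannot be told apart in any value given here, and none of the 10 genes is on X or Y. In bulk tissue, fewer cells of a type and less RNA per cell cannot be told apart either. WT c stood apart from its group: the chi-square of counts over genes, per degree of freedom, was 3.75 and 3.23 against WT a and WT b, beside 1.56 between those and 1.62 to 1.88 among the KO libraries. Without WT c, the log2 fold changes were 1.15 for *Acta1*, -1.56 for *Lmod2*, -0.23 for *Actn2*, -0.12 for *Tmod1*, 0.38 for *Tmod2* and 0.06 for *Actc1*, all still called.

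*Lmod2* transcript in KO hearts was 3.04-fold lower than in WT and *Acta1* was 2.09-fold higher, whereas the other 8 genes differed by less than 1.5-fold. *Actn2* and *Tmod1* were also lower in KO, and *Actc1* and *Tmod2* were also higher, by edgeR's quasi-likelihood test (adjusted p under 0.05). *Actb*, *Actg1*, *Lmod3* and *Tmod3* did not pass. All 10 genes were tested, with 105 counts or more in every library. Over all 13804 genes tested, 15.7% were called lower and 14.6% higher, so 30.3% in either direction, beside 6 of these 10. A change of at least 1.5-fold was called for 6.19% of all genes (3.20% lower, 2.99% higher) and for 2 of the 10. The median log2 fold change was -0.03 over the 10 genes and 0.0017 over all genes, and the median size of the change was 0.10 and 0.13.

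**Figure D1:**
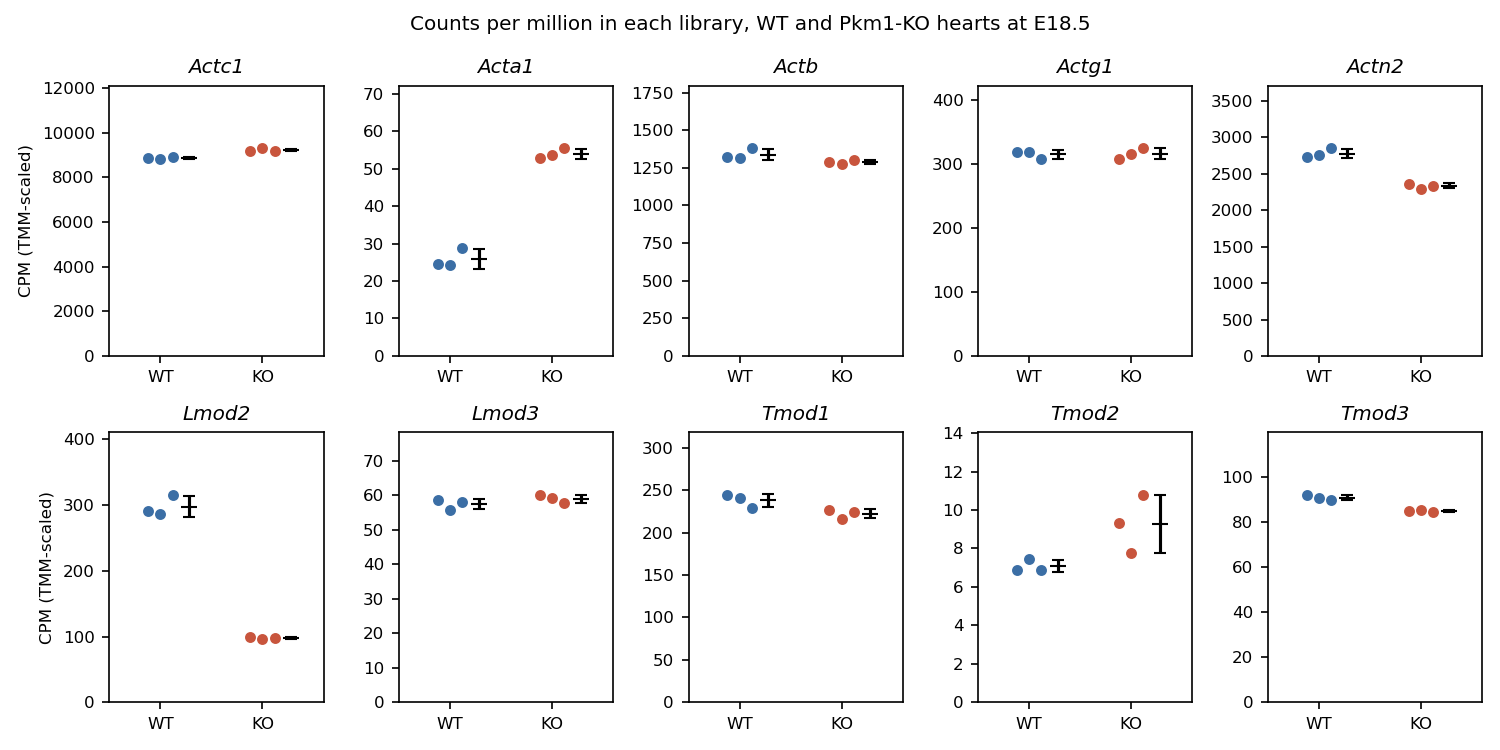
CPM, scaled by TMM, on vertical axes that start at 0 and differ in range, of the 10 genes in the 3 WT (blue) and 3 KO (red) libraries, with the mean ± SD in black. The KO points of *Lmod2* lie between 96.6 and 99.5 CPM, all below the WT points, and those of *Acta1* between 52.7 and 55.4, all above them.

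The alpha-actins were considered first, because *Actc1* and *Acta1* encode nearly identical proteins from separate genes. The start of each coding sequence is shown beside its closest partner to make plain how reads tell the isoforms apart. The first 60 coding bases (GRCm38, minus strand in all 4 genes) come from chr2:114051972-114052031 for *Actc1*, chr8:123893638-123893697 for *Acta1*, chr5:142905627-142905686 for *Actb* and chr11:120348032-120348091 for *Actg1*. Capitals mark the 9 bases of each that differ from the partner, *Actc1* against *Acta1* and *Actb* against *Actg1*.
Actc1: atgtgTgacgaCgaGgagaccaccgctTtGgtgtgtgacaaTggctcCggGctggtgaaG
Acta1: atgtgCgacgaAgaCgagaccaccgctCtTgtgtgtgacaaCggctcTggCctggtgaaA
Actb: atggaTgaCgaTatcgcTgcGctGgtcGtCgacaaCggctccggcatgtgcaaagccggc
Actg1: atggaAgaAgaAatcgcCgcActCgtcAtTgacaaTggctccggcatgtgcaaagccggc
Over the whole coding sequence, 86.3% of 1131 bases were identical between *Actc1* and *Acta1*, with no identical run longer than 29 bases, and 88.6% of 1125 between *Actb* and *Actg1*, with a longest run of 62. Of all stretches of 50 bases in the transcripts of *Actc1*, 0% occurred in transcripts of another gene, against 2.02% for *Acta1*, 9.12% for *Actb* and 37.4% for *Actg1*. For *Actg1* most of these lay in pseudogenes such as *Gm12715* (33.2%), and 1.88% lay in genes of the table. For *Acta1*, 1.83% lay in *Actb*, which was at 1338 CPM in WT beside 25.9 for *Acta1*. How reads matching several genes were counted is not given in the sources used here. *Actg1* has the largest shared part, and the scarce *Acta1* shares with a far more abundant gene. The effect on the values was not tested.

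*Acta1*, on chromosome 8 from 123891769 to 123894751, was at 24.6, 24.2 and 28.9 CPM in libraries a to c of WT and at 52.7, 53.7 and 55.4 CPM in those of KO. The highest WT library was thus well below the lowest KO library. The log2 fold change was 1.07 (SE 0.0639, 95% interval 0.93 to 1.20, adjusted p = 4.17e-13), the 79th highest among the 13508 genes that averaged 1 CPM or more. *Actc1*, the 6th most abundant of those genes, was at 8877, 8827 and 8889 CPM in WT and at 9177, 9295 and 9182 CPM in KO. All KO values lay above all WT values, but the gap was small, a rise of 3.99% (log2 fold change 0.06, SE 0.0162, adjusted p = 0.00959). The call for *Actc1* was lost in DESeq2 (adjusted p = 0.109), in edgeR's exact test (0.0578), without WT b (0.0663) and without KO b (0.0583).

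Per kilobase of exon, the scale on which levels of different genes can be compared, *Acta1* remained a minor actin. It made up 0.307% ± 0.0302 (SD, n = 3) of the summed *Acta1* and *Actc1* level in WT and 0.613% ± 0.0168 in KO. The log2 ratio of *Acta1* to *Actc1* CPM was -8.50, -8.51 and -8.26 in WT and -7.44, -7.44 and -7.37 in KO, a difference of 1.01 (exact two-sided permutation test, p = 0.1, the smallest that 3 against 3 allows). With all 6 actin genes summed, *Actc1* took 85.9% in WT and 86.4% in KO. The sum itself was 6375 ± 38.6 CPM per kilobase in WT and 6597 ± 34.4 in KO, a ratio of 1.035, with no overlap between the groups.

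The cytoplasmic actins did not pass the test. *Actb* was at 1319, 1315 and 1380 CPM in WT and 1289, 1274 and 1303 in KO (log2 fold change -0.05, 95% interval -0.10 to -0.0041, adjusted p = 0.0939), with every KO value below every WT value. *Actg1* was at 319, 319 and 308 CPM in WT and 308, 315 and 325 in KO, and the groups overlapped (log2 fold change 0.0027, interval -0.06 to 0.07, adjusted p = 0.958). The within-library log2 ratio of *Actb* to *Actg1* was 2.08 in WT and 2.03 in KO (exact two-sided permutation test, p = 0.3). Of the other actins, the vascular smooth muscle isoform *Acta2* was at 568 ± 21.4 CPM in WT and 576 ± 8.11 in KO (adjusted p = 0.616), and the enteric isoform *Actg2* was at 4.18 and 3.84 CPM (adjusted p = 0.674). Non-muscle cells, which carry the cytoplasmic actins too, were followed by marker sums. The 7 fibroblast markers gave 3238 to 3286 CPM in WT and 3112 to 3183 in KO (3 lower), the 6 endothelial markers 1055 to 1058 and 997 to 1008 (2 lower), the 5 epicardial markers 120 to 124 and 136 to 149 (3 higher) and the 6 immune markers 33.2 to 36.3 and 32.4 to 39.2 (1 lower). Over all genes, 30.3% were called in either direction. The part of these cells in the actin values was not tested.

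Markers of other muscle were read beside *Acta1*, because atrial, skeletal and smooth muscle could add its transcripts or those of *Acta2* to a heart sample. Of 6 atrial markers analysed, the light chains *Myl4* and *Myl7* and the peptide hormone precursor *Nppa* were higher in KO (log2 fold changes 1.10, 0.75 and 0.68) and *Nr2f1*, *Nr2f2* and *Stard10* were not called. Their summed level ran from 595 to 601 CPM in WT and from 1006 to 1030 in KO. Of 13 skeletal muscle markers, 6 were analysed, as *Myh1*, *Myh2*, *Myh4*, *Tnnt3*, *Tnnc2*, *Myod1* and *Myog* are not among the genes counted. The sum of the 6 ran from 1131 to 1153 CPM in WT and from 1045 to 1060 in KO. Most of that sum was the creatine kinase *Ckm* (1116 CPM in WT and 1025 in KO), so it mainly follows that gene. The fetal myosin *Myh8* was higher in KO, at 1.81 and 3.84 CPM, as was the light chain *Myl1* (17.4 and 20.5), whereas the embryonic myosin *Myh3* and the fast troponin *Tnni2* were lower, *Ckm* was also lower and *Mylpf* was not called. The 7 smooth muscle markers, *Acta2* among them, gave 940 to 1002 CPM in WT and 923 to 946 in KO (3 lower, 1 higher). *Acta2* itself, at 568 and 576 CPM, made up most of that sum, so the sum is no separate check on it. *Myh11* (log2 fold change -0.47), *Smtn* (-0.19) and *Cald1* (-0.13) were lower and *Cnn1* (0.30) was higher. *Acta2*, *Tagln* and *Mylk* were not called. No analysed marker of these lists was at 0, and the part of any of these cells in the *Acta1* difference was not tested.

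**Figure D2:**
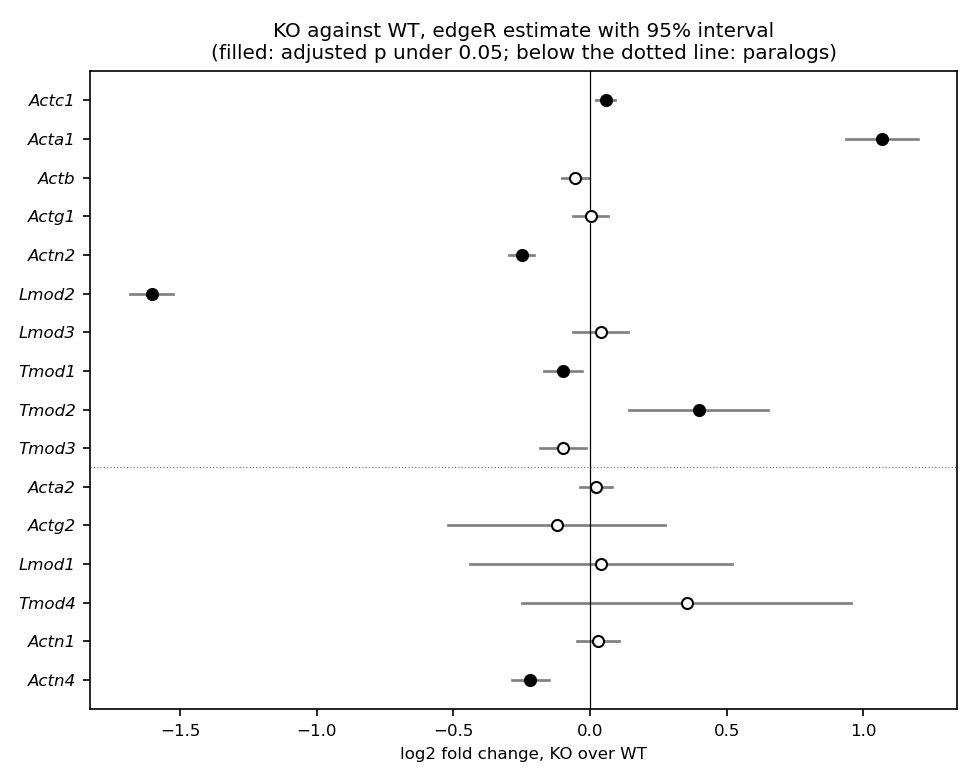
Log2 fold change of KO over WT from edgeR, with the 95% interval as a grey line, for the 10 genes (above the dotted line) and 6 paralogs (below it), where filled points have an adjusted p under 0.05. *Lmod2* at -1.60 and *Acta1* at 1.07 stand apart, and the intervals of *Actg1* and *Lmod3* include 0.

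*Lmod2*, the leiomodin of the heart, is transcribed from the plus strand of chromosome 6, between 24597762 and 24605414. It was at 291, 287 and 316 CPM in WT, from 4804 to 5618 counts, and at 99.5, 96.6 and 97.2 CPM in KO, from 1530 to 1878 counts. The KO libraries agreed closely with each other and all lay below every WT library. The log2 fold change was -1.60 (SE 0.0388, 95% interval -1.68 to -1.53, adjusted p = 3.82e-22), the 43rd lowest of the 13508 genes. None of the 50-base stretches of *Lmod2* occurs in another gene, and its neighbours *Asb15* (6.77 CPM in WT, 7.38 in KO, adjusted p = 0.516) and *Wasl* (86.7 and 80.8, adjusted p = 0.0983) were not called.

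*Lmod3*, a leiomodin best known from skeletal muscle, was at 58.6, 55.7 and 58.0 CPM in WT and 60.1, 59.1 and 57.7 in KO. The groups overlapped, and the log2 fold change was 0.04 (95% interval -0.06 to 0.14, adjusted p = 0.600). The log2 ratio of *Lmod3* to *Lmod2* CPM was -2.37 in WT and -0.73 in KO, a difference of 1.64 (exact two-sided permutation test, p = 0.1, the smallest possible), and per kilobase *Lmod3* was at 0.172 of the *Lmod2* level in WT and 0.538 in KO. *Lmod1*, the smooth muscle leiomodin, was at 1.82 CPM in WT and 1.88 in KO (adjusted p = 0.915).

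The tropomodulins differed far less than *Lmod2*. *Tmod1*, the tropomodulin of cardiac sarcomeres, was at 244, 240 and 229 CPM in WT and 227, 216 and 224 in KO. Every KO value was below every WT value, though the highest KO and lowest WT libraries were close (log2 fold change -0.10, SE 0.0341, adjusted p = 0.0304), and the call was lost in 6 of 14 alternatives: in DESeq2 and without WT a, WT b, KO a, KO b or KO c, with adjusted p from 0.0508 to 0.160. The 3' end of *Tmod1* overlaps *Tstd2* on the other strand, and 31.4% of its 50-base stretches are shared with it. *Tstd2* was at 18.9 ± 0.560 CPM in WT and 23.1 ± 0.867 in KO (adjusted p = 0.00306), and whether the counting used strand is not given in the sources used here.

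*Tmod2* and *Tmod3*, encoding the neuronal and the ubiquitous tropomodulin, are neighbours on chromosome 9, the chromosome of *Pkm*, 15.9 and 15.8 Mb from it. On that chromosome 32.3% of 767 genes were called in either direction, beside 30.3% of all genes. *Tmod2* was scarce, at 6.89, 7.45 and 6.90 CPM in WT and 9.33, 7.77 and 10.8 in KO. KO b lay just above the WT libraries and KO c farthest from them (log2 fold change 0.40, SE 0.124, adjusted p = 0.0159). The call was lost in DESeq2 (0.0529), without KO a (0.0501) and without KO c (0.146, where the log2 fold change was 0.28). *Tmod3* was at 92.1, 90.5 and 89.8 CPM in WT and 85.0, 85.1 and 84.3 in KO, and the groups did not overlap although the test was not passed (log2 fold change -0.10, 95% interval -0.18 to -0.01, adjusted p = 0.0726). Without WT c it passed (adjusted p = 0.0425). *Tmod4*, a skeletal muscle isoform, was at 0.987 and 1.25 CPM (adjusted p = 0.388).

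With the 5 leiomodin and tropomodulin genes summed per kilobase, the level was 246 ± 6.45 CPM per kilobase in WT and 141 ± 2.39 in KO, a ratio of 0.573. For the 3 tropomodulins alone the ratio was 0.938. *Lmod2* made up 60.2%, 60.5% and 63.2% of the 5-gene sum in WT and 35.1%, 35.3% and 35.0% in KO. *Tmod1* made up 24.6% in WT and 40.00% in KO, so the order of the 2 genes was exchanged. The log2 ratio of *Lmod2* to *Tmod1* CPM was 0.32 in WT and -1.19 in KO, a difference of -1.51 (exact two-sided permutation test, p = 0.1, the smallest possible). Counting each gene's longest transcript as its length gave *Lmod2* 54.6% in WT and 29.3% in KO.

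**Figure D3:**
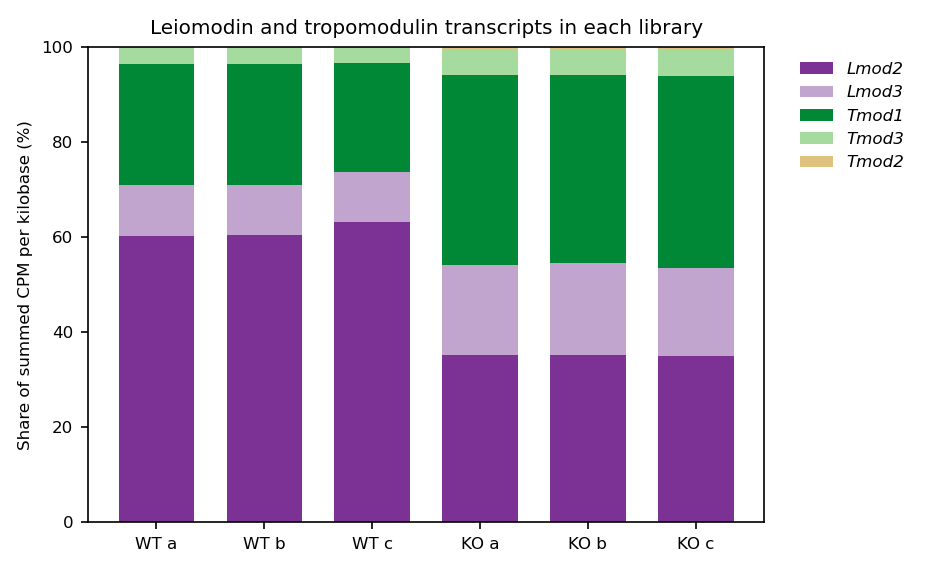
Share of each leiomodin and tropomodulin gene in the summed CPM per kilobase of exon of the 5 genes (%, bars to 100), one bar per library, in which *Tmod2* is a thin band at the top. *Lmod2* fills 60.2% to 63.2% of the WT bars and 35.0% to 35.3% of the KO bars.

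*Actn2*, the cross-linker that ties the barbed ends of thin filaments into the Z-disc, was at 2727, 2752 and 2851 CPM in WT and 2365, 2298 and 2338 in KO. The groups were well apart, and the log2 fold change was -0.25 (SE 0.0219, 95% interval -0.30 to -0.21, adjusted p = 1.02e-09), a decrease of 16.0%. Of its non-muscle relatives, *Actn4* was lower in KO (360 ± 11.4 and 309 ± 10.4 CPM, log2 fold change -0.22, adjusted p = 8.94e-06) and *Actn1* was not called (125 and 127 CPM, adjusted p = 0.580). Of the 10 genes, 5 had all KO values below all WT values (*Actb*, *Lmod2*, *Tmod1*, *Tmod3* and *Actn2*) and 3 had them all above (*Acta1*, *Actc1* and *Tmod2*), beside 21.4% and 21.0% of all genes, 42.4% in all.

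Per kilobase, the order of the 10 genes in WT was *Actc1* (5479), *Actn2* (732), *Actb* (499), *Lmod2* (151), *Actg1* (119), *Tmod1* (60.3), *Lmod3* (25.9), *Acta1* (16.9), *Tmod3* (8.14) and *Tmod2* (0.606 CPM per kilobase). Each neighbour in that order was separated from the next in every library. In KO, *Lmod2* fell from the 4th to the 6th place, at 49.5 CPM per kilobase, below *Actg1* (119) and *Tmod1* (56.3), and *Acta1* passed *Lmod3*, at 35.1 against 26.6. With the longest transcript as length, *Actg1* stood above *Lmod2* and *Tmod3* above *Acta1* already in WT.

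**Figure D4:**
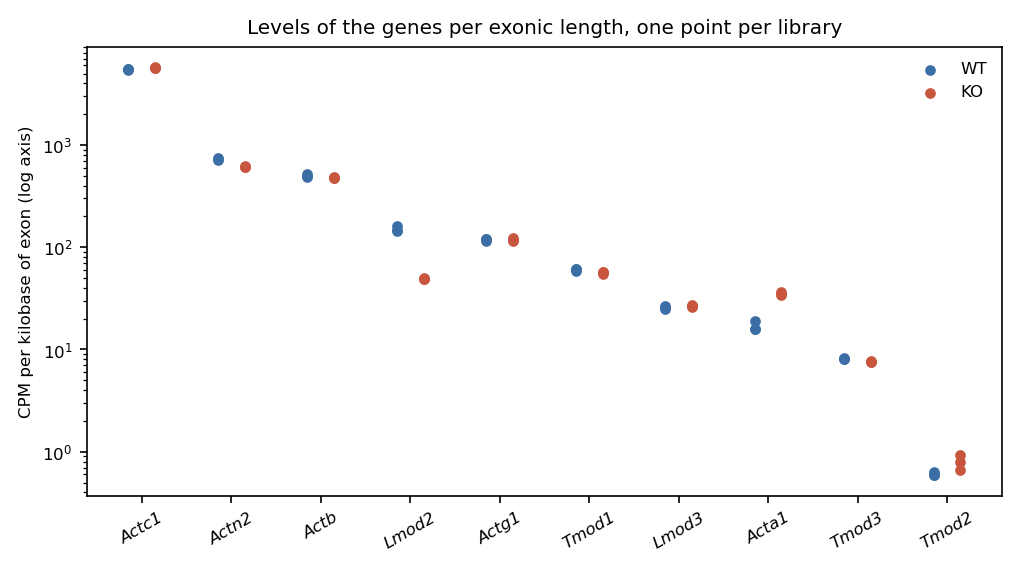
CPM per kilobase of exon (log axis) of the 10 genes in order of their WT mean, one point per library, WT in blue and KO in red. The levels span from 5479 for *Actc1* to 0.606 for *Tmod2* in WT, and the points of the groups separate most for *Lmod2* (151 and 49.5) and *Acta1* (16.9 and 35.1).

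Sarcomeric actin promoters are textbook targets of serum response factor (SRF) through the CArG box. Sequence upstream of the start site was therefore taken from RefSeq (GRCm38.p6), with entries for 7 of the 10 genes. *Actb*, *Lmod3* and *Tmod3* had no entry in the sources used here, so their promoters were not searched. The stretches in no annotated exon of the gene are printed for the 3 actins with a CArG box and for *Lmod2*, the gene with the largest change. They are chr8:123894776-123895025 (minus strand) for *Acta1*, chr2:114052888-114053125 (minus) for *Actc1*, chr11:120348543-120348745 (minus) for *Actg1* and chr6:24597521-24597761 (plus) for *Lmod2*. Capitals mark the CArG box in the actins, and in *Lmod2* the matches with 1 mismatch.
Acta1: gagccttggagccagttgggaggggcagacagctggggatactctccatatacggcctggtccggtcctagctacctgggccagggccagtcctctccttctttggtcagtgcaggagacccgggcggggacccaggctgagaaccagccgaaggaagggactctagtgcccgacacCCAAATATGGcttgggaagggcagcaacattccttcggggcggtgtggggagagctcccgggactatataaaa
Actc1: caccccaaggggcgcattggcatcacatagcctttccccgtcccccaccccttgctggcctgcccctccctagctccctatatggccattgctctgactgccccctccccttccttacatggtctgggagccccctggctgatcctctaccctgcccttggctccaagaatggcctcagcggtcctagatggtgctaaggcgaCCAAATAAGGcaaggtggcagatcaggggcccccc
Actg1: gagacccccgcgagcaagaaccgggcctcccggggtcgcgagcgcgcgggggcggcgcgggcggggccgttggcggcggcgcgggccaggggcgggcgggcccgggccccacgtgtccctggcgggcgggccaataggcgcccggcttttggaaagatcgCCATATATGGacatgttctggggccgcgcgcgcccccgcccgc
Lmod2: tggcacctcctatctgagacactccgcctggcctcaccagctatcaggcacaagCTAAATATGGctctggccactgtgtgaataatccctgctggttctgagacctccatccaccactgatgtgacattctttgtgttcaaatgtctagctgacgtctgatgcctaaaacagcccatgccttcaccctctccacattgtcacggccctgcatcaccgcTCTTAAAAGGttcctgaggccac
On both strands and within 250 bases before the start, a CArG box was found from -73 to -64 in *Acta1* (CCAAATATGG), from -47 to -38 in *Actc1* (CCAAATAAGG) and from -90 to -81 in *Actg1* (CCATATATGG). Such a match occurs in 1.47% of 32851 promoters. *Tmod1*, *Tmod2* and *Actn2* had none, and *Lmod2* had none without a mismatch. With 1 mismatch allowed, *Lmod2* had CTAAATATGG and TCTTAAAAGG, and 17.5% of all promoters had a match of that kind. The 3 genes with an exact match differed in their response, with log2 fold changes of 1.07, 0.06 and 0.0027. A MEF2 site, found in 2.92% of promoters, was in none of the 7. The GC box GGGCGG was in *Acta1*, *Actg1*, *Tmod1* and *Actn2* (32.7% of promoters), CCAAT in *Actc1* and *Actg1* (33.8%), CATTCC in *Acta1* and *Tmod1* (12.6%) and TATAAA in *Acta1* (12.4%). These are matches of letters in a window, with distances counted from the RefSeq start. GENCODE places the start of *Acta1* at 123894751, *Actc1* at 114053548, *Actg1* at 120348542 and *Lmod2* at 24597762. By that annotation the distances in each of these genes differ, and the *Actc1* stretch lies within the gene.

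In a list of SRF and MEF2 regulators, *Abra*, which encodes an actin-binding protein that feeds actin state to SRF, was lower in KO, at 34.9 ± 1.32 CPM in WT and 10.7 ± 1.35 in KO (log2 fold change -1.71, SE 0.0824, adjusted p = 3.76e-15). *Srf* itself was at 160 and 165 CPM (log2 fold change 0.05, adjusted p = 0.350), though it was called higher without WT c. Of the 8 SRF and MEF2 regulators, 4 were lower and 0 higher, beside 15.7% and 14.6% of all genes. The 4 were *Abra*, *Mef2a*, *Mef2d* and *Myocd*, with log2 fold changes of -0.15, -0.13 and -0.09 for the last 3. The number lower was 2 in DESeq2, without WT b, without KO a and without KO b, where *Mef2d* and *Myocd* lost their calls, and 5 without WT c. All 10 genes of a list of early SRF targets were lower, beside 15.7% of all genes. That list was chosen with earlier results of these data known, so the count is a description. The list's median log2 fold change was -2.36, and its summed level was 2136 to 2298 CPM in WT and 693 to 708 in KO. *Ctgf* alone was at 1228 CPM in WT and 125 in KO, so the fall of the sum mainly follows that gene. *Fos* (-4.02), *Ctgf* (-3.29), *Fosb* (-3.10) and *Egr1* (-2.57) changed most, and *Vcl*, the focal adhesion gene vinculin, least (-0.10), with its call lost without WT b (adjusted p = 0.0669) or KO b (0.0543). *Acta1* was higher in the same libraries, and the part of SRF in any of these values was not tested.

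Transcripts of other proteins that build thin filaments were either lower in KO or not called. The median log2 fold change of 20 thin filament assembly genes was -0.09. Of the 20, 8 were lower and 0 higher (40.0% called, beside 30.3% of all genes, 15.7% lower). They included *Nrap*, a scaffold of nascent myofibrils (754 ± 20.7 and 554 ± 5.43 CPM, log2 fold change -0.44, adjusted p = 5.74e-13), the Xin repeat genes *Xirp2* (-0.39) and *Xirp1* (-0.27) and nebulin, *Neb* (-0.28). *Neb* was at 37.3 and 30.7 CPM, and its more abundant relative *Nebl* (228 and 236) was not called (log2 fold change 0.04, adjusted p = 0.454). *Capzb*, which encodes a subunit of the CapZ barbed-end cap, was lower by the same measure (-0.24, adjusted p = 8.63e-06). The genes of the partner subunit, *Capza1* (0.03, adjusted p = 0.661) and *Capza2* (-0.10, adjusted p = 0.0577), were not called. Of 8 tropomyosin and troponin genes, 4 were lower and 0 higher, beside 15.7% and 14.6% of all genes. The lower genes were led by *Tpm1*, the main cardiac tropomyosin (2764 ± 220 and 2237 ± 55.6 CPM, log2 fold change -0.31), *Tnnt2* (-0.25) and *Tnni3* (-0.24). These 3 were highest in WT c, and without it their log2 fold changes were -0.24, -0.18 and -0.15, all still called, while *Tnni3* lost its call in DESeq2 (adjusted p = 0.0575).

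Most genes of general actin handling did not pass the test, as was so over all genes. Of the turnover genes 14.3% were lower and of the folding genes 22.2%, beside 15.7% of all genes, and 0 were higher. Of 14 genes of actin turnover, 2 were lower, the monomer-binding *Tmsb10* (-0.22) and the Arp2/3 subunit *Arpc1b* (-0.16), and of 9 genes for actin folding and methylation 2 were lower, the chaperonin subunit *Cct2* (-0.13) and the actin histidine methyltransferase *Setd3* (-0.18). DESeq2 called 0 of the turnover genes lower. *Arpc1b* lost its call without WT b, WT c, KO a or KO b (adjusted p from 0.0683 to 0.165), the log2 fold change of *Tmsb10* was -0.09 without WT c, and *Setd3* was not called without WT b (adjusted p = 0.0532). Over the 75 genes of these lists and the paralogs, edgeR called 31 lower and 0 higher, and at an unadjusted p under 0.05 the counts were 36 and 0. DESeq2 called 24 lower and 0 higher, the exact test 30 and 0, and limma's voom 31 and 0. The background was again 15.7% and 14.6%. These lists were chosen with earlier results of these data known, and the 10 early SRF targets are among the 31, so the counts are a description.

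**Figure D5:**
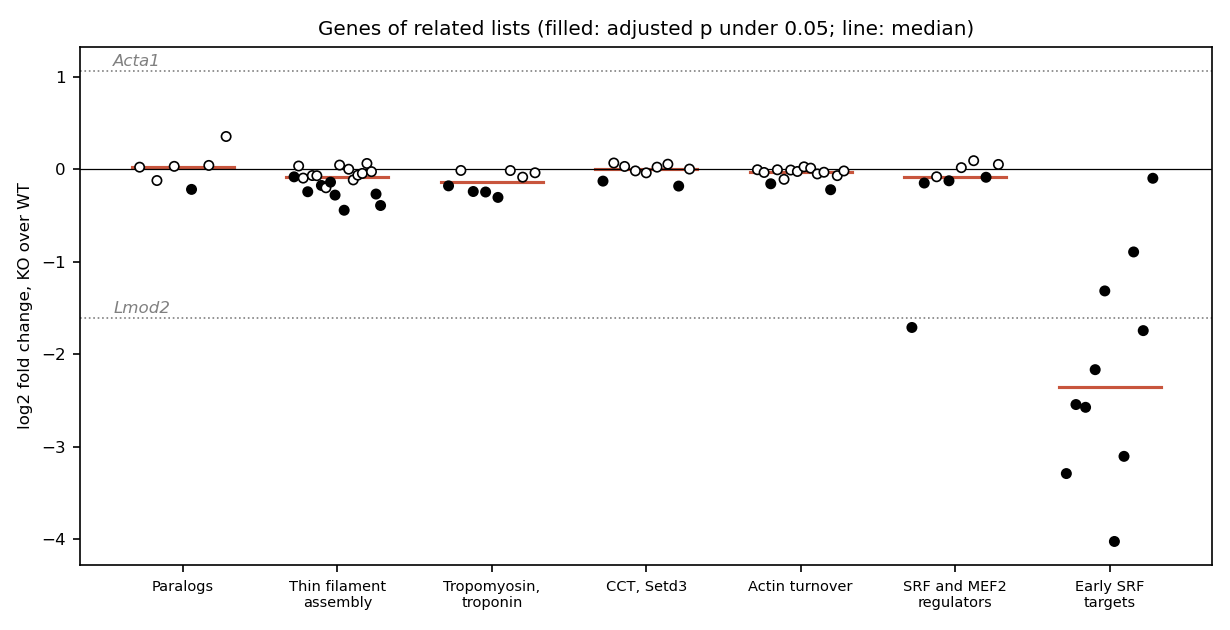
Log2 fold change of KO over WT for the genes of 7 related lists, 1 point per gene, filled where the adjusted p is under 0.05, with the list median as a red line and dotted lines at the values of *Acta1* and *Lmod2*. *Abra*, 1 of the regulators, and 7 of the 10 early SRF targets lie below *Lmod2*, no point lies above *Acta1*, and the medians of the other lists lie between -0.13 and 0.03.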

How the data were processed

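RNA of 3 WT and 3 KO hearts was analysed. The submitters' processing notes name cutadapt 1.18, HISAT2, StringTie and mm10, without roles, and the counting program and its strand setting are not given in the sources used here. The table the authors deposited gives raw counts for each gene symbol, with 1 column for every library. It also holds their own KO-against-WT comparison, with p-values, false discovery rates, log2 fold changes and average log2 CPM, which was not used.

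Counts were fitted in R 4.3.3 with edgeR 4.0.16: filterByExpr (13804 of 13809 genes kept), TMM scaling, a quasi-likelihood test of genotype without covariates, and adjustment by Benjamini-Hochberg over all genes tested, with 0.05 as threshold. CPM are counts scaled to the TMM-adjusted library size. The script was tested on simulated data. Symbols were matched to GENCODE on GRCm38 (13299 directly, 491 through RefSeq, 19 not), and CPM were divided by the length of all exons of a gene. Ratios within libraries were compared by exact two-sided permutation tests. Each library counted as 1 replicate, because the study describes 3 biological replicates per genotype. The nearest libraries differed by more than sampling noise, which does not show whether they come from separate embryos. The common biological coefficient of variation in edgeR was 3.42%. Intervals and detection limits cover counting error or the spread between the 3 libraries only.

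The 10 genes and the related lists were chosen with earlier results of these data known. The other genes named are all paralogs, up to 4 called genes per list with the largest change, *Pkm*, sex-linked genes, and genes that a family, a role or an overlap required, such as *Srf*, *Vcl*, *Tstd2*, *Asb15*, *Wasl* and the marker genes, some chosen after their values were seen. Alternatives were RLE size factors, DESeq2 1.42.0, edgeR's exact test, voom of limma 3.58.1, 2 other filters on low counts, genes on X and Y or *Rn45s* left out, each library left out in turn, and the longest transcript as gene length. Figures were drawn with matplotlib 3.10.9.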

Additional observations from a re-analysis of the deposited data

How the results depend on the processing

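*Acta1* (log2 fold change 1.02 to 1.15), *Lmod2* (-1.63 to -1.56) and *Actn2* (-0.26 to -0.23) kept their direction and call in all 14 alternatives, and *Actb* and *Lmod3* stayed uncalled in all of them. *Actc1*, *Tmod1* and *Tmod2* lost their calls in 4, 6 and 3 of 14, and *Tmod3* gained one in 1. DESeq2 called 1 of the 10 genes higher, against 3 by the quasi-likelihood test. Leaving out 1 library in turn gave 2 to 4 genes lower and 2 to 3 higher, and 0 to 1 related genes called higher. Over the same fits 2 to 5 SRF and MEF2 regulators, 1 to 2 turnover genes and 1 to 2 folding genes were lower. The direction turned for 3 uncalled genes over the same fits: *Actg1* ran from -0.0178 to 0.0215 (-0.0165 without WT c, -0.0178 without KO c), *Actg2* from -0.32 to 0.13 and *Lmod1* from -0.0739 to 0.15 (-0.0208 without WT c). With the longest transcript as length, the share of *Acta1* in *Acta1* plus *Actc1* was 0.593% in KO, and that of *Lmod2* in its 5 genes was 54.6% in WT and 29.3% in KO. The causes were not tested, except that the last values follow from the lengths. The median over all genes tested lay between 0.0005 and 0.0031 (log2) in the 14 alternatives. No paired analysis was possible because replicate numbers are missing from the column names. No 2 libraries agreed within sampling noise, so summing such a pair was not run. Depth limits *Tmod2*, *Tmod4*, *Lmod1* and *Actg2*, which had the fewest counts.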
